A study of Homo sapiens with 8 samples.

Results

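The genes described here mark the epithelial and the mesenchymal state of a cell, and were followed in 2 HER2+ breast cancer cell lines under inhibition of HER2 and of BET bromodomain proteins. They are CDH1, EPCAM, CDH2, VIM, FN1, ZEB1, ZEB2, SNAI1, SNAI2 and TWIST1, 10 of the 20531 genes listed in each deposited table, taken by gene symbol with earlier results of these data known. Poly(A) RNA was sequenced from SKBR-3 cells, which lack the estrogen and progesterone receptors, and from BT474m1 cells, a derivative of BT474 that expresses both receptors. The treatments, which lasted 48 h per the labels, were the vehicle DMSO, lapatinib at 300 nM, which blocks the kinases HER2 and EGFR, JQ1 at 300 nM, which displaces BET proteins from chromatin, and the 2 drugs together, all in RPMI medium with serum. Each of the 8 groups held 1 library, so there was no spread between replicates to hold a difference against, and no test was made.

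Epithelial cells hold to each other through adherens junctions, built on E-cadherin, and through other adhesion molecules such as EpCAM. In the epithelial to mesenchymal transition (EMT), transcription factors of the ZEB, SNAI and TWIST families bind E-box motifs and repress CDH1 and other epithelial genes, while mesenchymal genes such as N-cadherin, vimentin and fibronectin are expressed. Luminal breast cancer cells are as a rule epithelial, and SKBR-3 is long known as a breast cancer line without E-cadherin.

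Values are read counts that the authors normalised to an upper quartile of 1000, taken over the genes above 0 in a library. The libraries held 21420115 to 34112382 reads on genes, and 1 read was worth 0.471 to 0.766 units. A count of 3 reads or fewer, or 1.41 to 2.30 units, was taken as the floor below which a gene was not detectable at this depth. A log2 fold change is the difference of log2(normalised read count + 1), and its 95% interval is that of the ratio of reads with no pseudocount and covers counting error only. For a gene of few reads the interval is therefore not centred on the log2 fold change it stands beside. A gene was called at a change of at least 2-fold with more than 3 reads in at least 1 of the 2 libraries, among the 14429 genes that reached 10 units in any library, and "rose" and "fell" are used of called genes. Of the 10 genes 8 passed that filter, and ZEB1 and ZEB2 did not. Of 12 luminal markers, the keratins KRT8, KRT18 and KRT19 had values from 10734 to 211202 in all 8 libraries, while the secreted TFF1 and TFF3 had 1.53 to 22.2 and 7.09 to 24.5 in SKBR-3 and 206 to 8799 and 1153 to 8816 in BT474m1. With JQ1 in SKBR-3, 4 luminal markers were called higher (KRT7, KRT8, KRT18 and KRT19; 33.3%, beside 3.51% of all genes) and 3 lower (MUC1, TFF1 and TFF3; 25%, beside 11.2%). With both drugs in SKBR-3 6 were higher (50%, beside 10.5%) and 3 lower (25%, beside 20.3%), and scaling to equal totals ended the higher calls of KRT8, KRT18 and MUC1. In BT474m1 JQ1 gave 0 higher and 2 lower (16.7%, beside 11.7%), and both drugs 0 and 3 (25%, beside 15.2%). Lapatinib gave 2 higher (16.7%, beside 10.7%) and 1 lower (8.33%, beside 9.07%) in SKBR-3, and 3 (25%, beside 13.9%) and 1 (8.33%, beside 7.99%) in BT474m1. Among the other cell types that a culture could hold, the 8 leukocyte markers summed to 198 to 419 in SKBR-3 and 18.4 to 33.7 in BT474m1, most of it CD68 (178 to 407 and 11.8 to 27.7), with PTPRC at or below 3.38. The 8 endothelial markers summed to 191 to 407 in SKBR-3 and 86.3 to 288 in BT474m1, with PECAM1 at or below 0.583. The endothelial genes ESAM, CDH5 and VWF passed the filter, at 158 to 289, 16.5 to 126 and 1.93 to 24.5 in SKBR-3 and at 78.7 to 117, 0 to 36.3 and 5.25 to 153 in BT474m1. CDH5 was highest with DMSO in both lines, and VWF was highest with DMSO in BT474m1. Of these 3 genes JQ1 gave 2 lower in each line (66.7%, beside 11.2% in SKBR-3 and 11.7% in BT474m1). Lapatinib gave 0 lower in SKBR-3 and 2 in BT474m1 (66.7%, beside 7.99%). Both drugs gave 1 lower in SKBR-3 (33.3%, beside 20.3%) and 2 in BT474m1 (66.7%, beside 15.2%). No treatment gave a higher call among the 3 against DMSO. The part of such cells in the results below was not tested. The 8 basal and myoepithelial markers summed to 40.9 to 129 in SKBR-3 and 43.1 to 101 in BT474m1.

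The 10 genes differed in level by orders of magnitude within a line, and CDH1, TWIST1, VIM, CDH2 and SNAI1 differed by more than 10-fold between the lines with DMSO. Per kilobase of the canonical transcript, the order in BT474m1 with DMSO was CDH1 (4035 normalised read counts per kb), EPCAM (3732), TWIST1 (136), VIM (94.7), FN1 (17.4), CDH2 (9.63), SNAI2 (3.24), SNAI1 (3.04), ZEB1 (0.318) and ZEB2 (0). In SKBR-3 with DMSO the order was EPCAM (2920), FN1 (141), SNAI1 (30.6) and CDH1 (0.893), with TWIST1 at 1 read, under the floor, and the other 5 genes at 0. SNAI2 and SNAI1, with 15 and 11 reads in BT474m1, are neighbours in that order whose counts do not separate them.

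**Figure D1:**
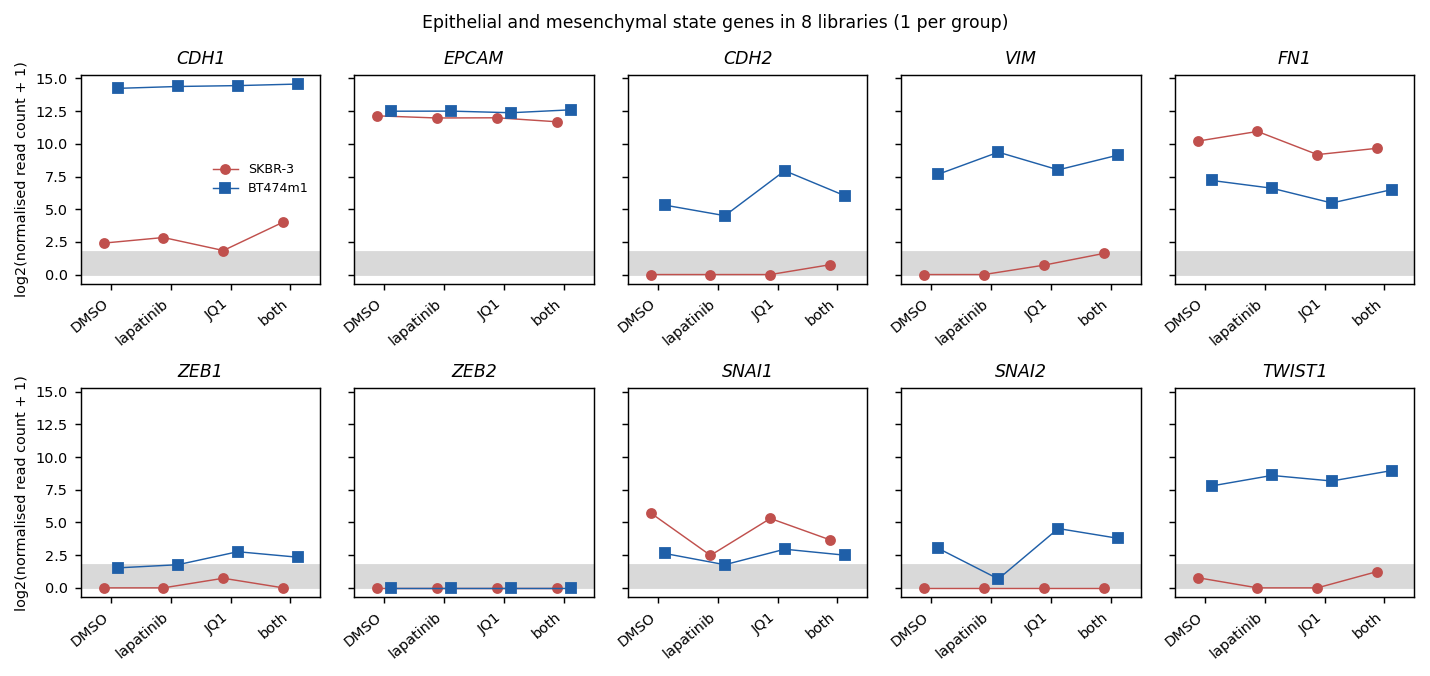
Level of each of the 10 genes in the 8 libraries, as log2(normalised read count + 1), with SKBR-3 as circles and BT474m1 as squares, 1 library per point; the grey band marks the floor of 3 reads. CDH1, CDH2, VIM and TWIST1 lie far apart in the 2 lines, EPCAM lies close, and FN1 and, except under lapatinib, SNAI1 are called higher in SKBR-3.

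The 250 bases before the annotated start of CDH2, VIM and FN1, the mesenchymal genes whose levels moved with treatment, are given so that the sequence can be read beside those values. The genes were picked for this after their values were seen. The windows are the RefSeq promoter windows of GRCh38.p14 on the strand of the gene, at chr18:28177131-28177380 (minus strand) for CDH2, the first of its 2 windows, chr10:17227991-17228240 (plus strand) for VIM and chr2:215436069-215436318 (minus strand) for FN1. Capitals mark matches, on either strand, to 4 motifs that were searched: the E-box bound by SNAI and ZEB factors (CACCTG), the cAMP response element (CRE, TGACGTCA), the CCAAT box (CCAAT) and a forkhead motif (GTAAACA).
CDH2: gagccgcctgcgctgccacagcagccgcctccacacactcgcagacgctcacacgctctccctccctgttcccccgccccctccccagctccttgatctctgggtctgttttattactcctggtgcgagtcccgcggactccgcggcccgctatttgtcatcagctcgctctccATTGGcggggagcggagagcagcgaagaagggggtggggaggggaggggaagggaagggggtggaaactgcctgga
VIM: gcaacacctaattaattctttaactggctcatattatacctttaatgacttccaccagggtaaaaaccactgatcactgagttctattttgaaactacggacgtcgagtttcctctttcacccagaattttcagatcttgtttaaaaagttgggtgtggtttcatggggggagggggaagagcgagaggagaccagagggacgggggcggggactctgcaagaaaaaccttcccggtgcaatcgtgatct
FN1: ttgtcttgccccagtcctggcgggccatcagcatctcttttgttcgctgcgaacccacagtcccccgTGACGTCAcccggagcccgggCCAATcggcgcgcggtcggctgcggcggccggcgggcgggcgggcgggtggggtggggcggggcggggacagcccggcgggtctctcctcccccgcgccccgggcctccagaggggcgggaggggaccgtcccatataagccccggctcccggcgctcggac
The FN1 window held 1 CRE, which begins 183 bases before the start, and 1 CCAAT box, which begins 162 bases before it. The CDH2 window held 1 CCAAT box, on the other strand, 76 bases before the start, and the VIM window held none of the 4 motifs. Over 35116 windows of the same length, a CRE was present in 1.65%, a CCAAT box in 32.0%, the E-box in 17.5% and the forkhead motif in 2.98%. These matches are letters in a window and do not show that a factor is bound. Windows were listed for 5 of the 10 genes, and the nearly silent ZEB1 and ZEB2 are not shown.

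CDH1, which encodes E-cadherin, separated the lines more than nearly every other gene. The SKBR-3 values were 4.29 (DMSO), 6.13 (lapatinib), 2.58 (JQ1) and 15.1 (both drugs), which are 6, 8, 4 and 22 reads. In BT474m1 they were 19413, 21432, 22451 and 24373 in the same order. All 4 BT474m1 libraries lie above all 4 SKBR-3 libraries. The ratio of BT474m1 to SKBR-3 was 4520 under DMSO (95% counting interval 2077 to 12318), 3499 under lapatinib (1775 to 8105), 8711 with JQ1 (3402 to 31972) and 1611 with both drugs (1064 to 2570). Ranked by the log2 difference, CDH1 stood at place 3, 7, 1 and 8 from the top of the 14429 genes at the 4 treatments in that order.

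Within SKBR-3, the few CDH1 reads were most with both drugs. The log2 fold change of both drugs was 1.61 against DMSO (1.82 without the pseudocount, 95% counting interval 0.47 to 3.41), 1.18 against lapatinib (0.08 to 2.68) and 2.17 against JQ1 (1.0 to 4.55), and CDH1 was called in each. With a pseudocount of 10 in place of 1 these values were 0.81, 0.64 and 0.999, and CDH1 was called in none. With lapatinib alone it was 0.43 (-1.20 to 2.32) and with JQ1 alone -0.57 (-3.00 to 1.34), not detectable at this depth. Both drugs stood 1.74 above the sum of the single-drug log2 fold changes, a value that rests on 4 to 22 reads in a library. In BT474m1 the CDH1 log2 fold changes were 0.14 (lapatinib), 0.21 (JQ1) and 0.33 (both drugs), so the gene stayed within 1.26-fold of DMSO.

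Because the CDH1 values in SKBR-3 were near the floor, the genes beside it on chromosome 16 were read as well, a choice made after its values were seen. CDH3, its next neighbour, which encodes P-cadherin, was at 0 in all 4 SKBR-3 libraries and at 930 to 1157 in BT474m1. The other neighbours, except HAS3, were above the floor in all 8 libraries. CHTF8, a subunit of a clamp loader used in DNA replication, had 1667 to 2419 in SKBR-3 and 1728 to 2570 in BT474m1, and SNTB2, a syntrophin, had 841 to 1010 and 901 to 1072. The nearest gene on the other side, TANGO6, had 17.2 to 165 in SKBR-3 and 89.8 to 214 in BT474m1, and the zinc finger gene ZFP90, beyond CDH3, had 115 to 331 and 747 to 1000. HAS3, a hyaluronan synthase, was low in both lines, at 1.53 to 5.50 and 10.8 to 29.0.

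**Figure D2:**
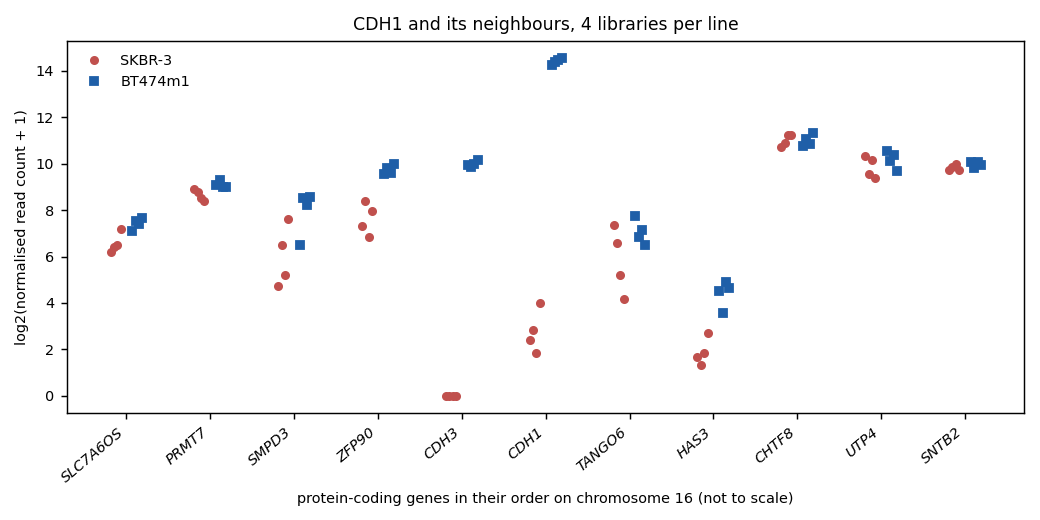
log2(normalised read count + 1) of CDH1 and 5 protein-coding genes on each side of it, in their order on chromosome 16 and not to scale, with SKBR-3 as circles and BT474m1 as squares, 4 libraries per line. CDH3 is at 0 in every SKBR-3 library and CDH1 at 15.1 or below, while SLC7A6OS, SMPD3, TANGO6, CHTF8, UTP4 and SNTB2 overlap between the lines.

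EPCAM, a cell adhesion molecule of epithelia, was high in both lines and was called in no comparison. Its values in SKBR-3 were 4518 (DMSO), 4033 (lapatinib), 4076 (JQ1) and 3300 (both drugs), and in BT474m1 5774, 5804, 5326 and 6223. The SKBR-3 libraries all lie below the BT474m1 libraries, by log2 differences of 0.35 to 0.91, or 0.19 to 0.60 when scaled by the median of ratios. With both drugs the log2 fold change against DMSO was -0.45 in SKBR-3 (-0.51 to -0.40) and 0.11 in BT474m1 (0.07 to 0.15). The genes whose values followed EPCAM most closely over the 8 libraries, each centred on its line's mean, were IFT81 (r = 0.99), DUSP8 (r = 0.99) and COPS7B (r = 0.98), out of 9841 genes compared. These coefficients describe 4 libraries of each line, centred within the line, and carry no test.

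CDH2, which encodes N-cadherin, was detectable in BT474m1 and not in SKBR-3. In BT474m1 its values were 38.7 (DMSO), 21.7 (lapatinib), 245 (JQ1) and 64.7 (both drugs). In SKBR-3 it was at 0 in 3 libraries and at 0.688, or 1 read, with both drugs. The JQ1 library of BT474m1 stands above the other 3. CDH2 rose with JQ1 by 2.63 on the log2 scale (2.32 to 3.02) against DMSO, while the log2 fold change was -0.81 with lapatinib (-1.44 to -0.25) and 0.73 with both drugs (0.32 to 1.17). Against JQ1 alone both drugs gave -1.90 (-2.23 to -1.62), and against lapatinib alone 1.53 (1.02 to 2.16), both called. The value with both drugs departed by -1.10 on the log2 scale from the sum of the single drugs. Against the floor of SKBR-3, CDH2 was at least 18.0-fold higher in BT474m1 with DMSO, at least 9.44-fold higher with lapatinib and at least 127-fold higher with JQ1. With both drugs the ratio was 94.1 (16.5 to 3749).

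VIM, which encodes the intermediate filament vimentin, likewise exceeded the floor in BT474m1 alone, and there it moved with lapatinib. Its BT474m1 values were 204 (DMSO), 657 (lapatinib), 257 (JQ1) and 563 (both drugs). In SKBR-3 it was at 0 with DMSO and lapatinib, at 0.644 with JQ1 and at 2.06 with both drugs, which is 3 reads at most. The 2 BT474m1 libraries with lapatinib are the highest. VIM rose by 1.68 on the log2 scale with lapatinib (1.52 to 1.85) and by 1.46 with both drugs (1.3 to 1.63), and had a log2 fold change of 0.33 with JQ1 (0.14 to 0.52). Both drugs differed by -0.22 from lapatinib (-0.35 to -0.10) and by 1.13 from JQ1 (0.98 to 1.29), the latter called. Set against SKBR-3, the VIM level of BT474m1 was at least 95-fold higher with DMSO and at least 286-fold higher with lapatinib. The ratio was 398 with JQ1 (71.1 to 15754) and 273 with both drugs (93.1 to 1326). The exons of VIM share 656 bases with those of VIM-AS1 on the opposite strand in GENCODE v44. Since the labels name both a stranded and another library kit, reads within those shared bases cannot be assigned to 1 of the 2 genes here. The same limit holds for CDH1, CDH2, SNAI2 and TWIST1, which share 347, 307, 121 and 141 exonic bases with a gene on the opposite strand.

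FN1, which encodes fibronectin of the extracellular matrix, was, of the 3 mesenchymal effectors, the 1 above the floor in SKBR-3. Its SKBR-3 values were 1180 (DMSO), 1976 (lapatinib), 578 (JQ1) and 808 (both drugs). In BT474m1 they were 146, 96.4, 43.5 and 89.2. The lowest library of each line is the one with JQ1, and no BT474m1 library reaches the lowest of SKBR-3. With JQ1 FN1 fell by 1.03 on the log2 scale in SKBR-3 (interval -1.15 to -0.91) and by 1.72 in BT474m1 (-2.10 to -1.40). Scaled by the median of ratios, the SKBR-3 fall no longer reached 2-fold. With lapatinib the log2 fold change was 0.74 in SKBR-3 (0.65 to 0.83) and -0.59 in BT474m1 (-0.88 to -0.32), neither called. With both drugs it was -0.54 (-0.65 to -0.44) in SKBR-3 and -0.70 (-1.0 to -0.42) in BT474m1. Both drugs against lapatinib gave -1.29 in SKBR-3, a fall of more than 2-fold, and -0.11 in BT474m1, whose interval of -0.44 to 0.22 holds no change. In BT474m1 the value with both drugs was 1.02 above that with JQ1 (0.89, and not called, with a pseudocount of 10), and the departure from the sum of single drugs was 1.61. The genes most like FN1 over the 8 libraries by the same measure were CFDP1 (r = 0.97), ZFPL1 (r = 0.97) and LRFN3 (r = 0.96).

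Of the EMT transcription factors, TWIST1 was expressed in BT474m1 and SNAI1 chiefly in SKBR-3. TWIST1, a basic helix-loop-helix factor, had values of 222 (DMSO), 387 (lapatinib), 288 (JQ1) and 501 (both drugs) in BT474m1. In SKBR-3 it had 0.716, 0, 0 and 1.38, which is 2 reads at most. All 3 treated BT474m1 libraries lie above DMSO. TWIST1 rose with both drugs, by 1.17 on the log2 scale (1.01 to 1.34), and had log2 fold changes of 0.80 with lapatinib (0.63 to 0.98) and 0.37 with JQ1 (0.20 to 0.55). The departure of both drugs from the sum of the single drugs was -0.001, from single libraries of 471 to 859 reads and with no interval. Against the floor of SKBR-3, the TWIST1 level of BT474m1 was at least 168-fold higher with lapatinib and at least 149-fold higher with JQ1, and the ratio was 310 (55.4 to 12279) with DMSO and 364 (100 to 3011) with both drugs.

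SNAI1, which encodes the zinc finger repressor Snail, was low but countable in SKBR-3 and moved with lapatinib there. Its SKBR-3 values were 52.3 (DMSO), 4.59 (lapatinib), 38.7 (JQ1) and 11.7 (both drugs), which are 73, 6, 60 and 17 reads. The BT474m1 values were 5.19, 2.41, 6.76 and 4.66, on 4 to 14 reads. Both SKBR-3 libraries with lapatinib lie below both without it. SNAI1 fell by 3.25 on the log2 scale with lapatinib (interval -5.0 to -2.32; -2.09 with a pseudocount of 10) and by 2.07 with both drugs (-3.01 to -1.38), whereas the log2 fold change with JQ1 was -0.43 (-0.95 to 0.08). Both drugs stood 1.18 above lapatinib, an interval of -0.06 to 2.98 that includes no change although the 2-fold size was met, and 0.57 with a pseudocount of 10. The departure of both drugs from the sum of the single drugs was 1.61, a value that rests on 6 to 73 reads in a library. In BT474m1 the log2 fold changes against DMSO were -0.86, 0.33 and -0.13 with lapatinib, JQ1 and both drugs, and all 3 counting intervals include 0. SNAI1 was 10.1-fold higher in SKBR-3 than in BT474m1 with DMSO, 5.72-fold higher with JQ1 and 2.51-fold higher with both drugs, and was not called with lapatinib. With a pseudocount of 10 the log2 difference between the lines with both drugs was -0.56, and SNAI1 was not called there.

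SNAI2, which encodes the related repressor Slug, was at 0 in all 4 SKBR-3 libraries. In BT474m1 it had 7.07 (DMSO), 0.602 (lapatinib), 22.2 (JQ1) and 12.8 (both drugs), which are 15, 1, 46 and 22 reads. The lapatinib library holds the fewest reads and the JQ1 library the most. SNAI2 rose with JQ1 by 1.52 on the log2 scale (0.78 to 2.60; 0.92, and not called, with a pseudocount of 10). With lapatinib it fell by 2.33 (-3.55 without the pseudocount, interval -8.95 to -0.85), on a single read, and the log2 fold change was -0.69, and not called, with a pseudocount of 10. With both drugs it was 0.78 (-0.15 to 1.91) against DMSO, and the ratio to lapatinib alone was 21.3 (3.44 to 879). The departure of both drugs from the sum of the single drugs was 1.58, on 1 to 46 reads in a library. Against the floor of SKBR-3, SNAI2 was at least 3.29-fold higher with DMSO, at least 11.5-fold higher with JQ1 and at least 6.22-fold higher with both drugs. With a pseudocount of 10 the log2 difference between the lines with DMSO was 0.77, below the call. ZEB1, a zinc finger homeobox repressor of CDH1, had 1.89, 2.41, 5.80 and 4.08 in BT474m1, or 4 to 12 reads, and at most 1 read in SKBR-3. ZEB2, its close relative, was at 0 in all 8 libraries. ZEB1 shares 396 exonic bases with ZEB1-AS1 on the opposite strand, and ZEB2 shares 1299 with ZEB2-AS1.

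**Figure D3:**
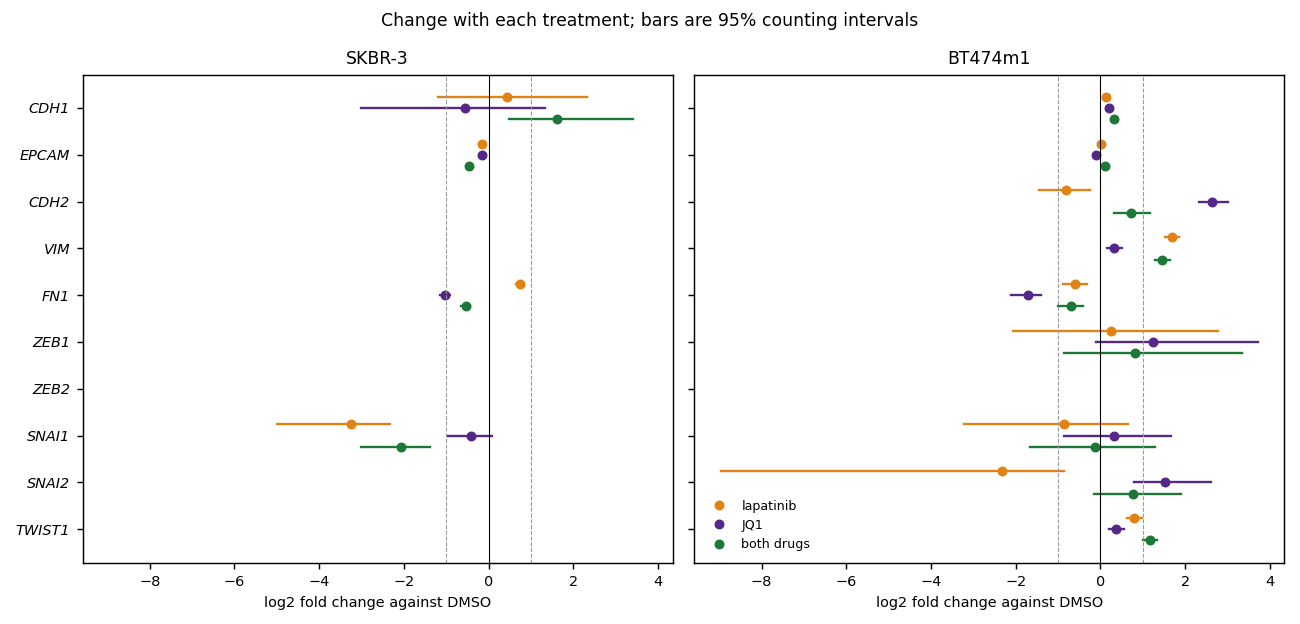
log2 fold change against DMSO of each gene with lapatinib, JQ1 and both drugs, in SKBR-3 (left) and BT474m1 (right). Bars are 95% counting intervals of the ratio without a pseudocount, broken lines mark a 2-fold change, and a comparison with 3 or fewer reads in both libraries is left out. The points beyond 2-fold are SNAI1 and CDH1 in SKBR-3, with FN1 at its edge with JQ1, and CDH2, VIM, FN1, SNAI2 and TWIST1 in BT474m1, where ZEB1 with JQ1 also lies past the line on 12 reads against 4 and is not called.

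Of the 8 genes that passed the filter, CDH2, VIM, SNAI2 and TWIST1 passed through BT474m1 and had 3 reads or fewer in every SKBR-3 library, so only 4 (CDH1, EPCAM, FN1 and SNAI1) could be called within SKBR-3, against 8 within BT474m1. Of the 14429 genes, 13206 to 13451 could be called in a comparison within SKBR-3. Lapatinib gave 0 calls higher and 1 lower (SNAI1) among the 4 in SKBR-3, where 10.7% of all genes were called higher and 9.07% lower. Among the 8 in BT474m1 it gave 1 higher (VIM) and 1 lower (SNAI2), beside 13.9% and 7.99% of all genes. JQ1 gave 0 higher and 1 lower (FN1) in SKBR-3, beside 3.51% and 11.2%, and 2 higher (CDH2 and SNAI2) and 1 lower (FN1) in BT474m1, beside 4.78% and 11.7%. Both drugs gave 1 higher (CDH1) and 1 lower (SNAI1) in SKBR-3, beside 10.5% and 20.3%, and 2 higher (VIM and TWIST1) and 0 lower in BT474m1, beside 14.1% and 15.2%. Over so few genes, these counts are not read as setting them apart from the rest of the transcriptome.

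Against lapatinib alone, both drugs gave 2 calls higher (CDH1 and SNAI1) and 1 lower (FN1) in SKBR-3, beside 2.92% and 15.6% of all genes, and 2 higher (CDH2 and SNAI2) and 0 lower in BT474m1, beside 5.08% and 12.4%. Against JQ1 alone they gave 1 higher (CDH1) and 1 lower (SNAI1) in SKBR-3, beside 9.22% and 11.9%, and 2 higher (VIM and FN1) and 1 lower (CDH2) in BT474m1, beside 12.2% and 7.2%. The comparisons within a line share libraries and are not independent of each other.

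For CDH1, CDH2, VIM, FN1 and TWIST1 the smallest difference between the lines was larger than the largest change against DMSO. With DMSO, 5 were called higher in BT474m1 (CDH1, CDH2, VIM, SNAI2 and TWIST1) and 2 lower (FN1 and SNAI1), where 26.6% and 15.6% of all genes were called. With lapatinib the counts were 4 and 1, beside 29.4% and 16.4%, with JQ1 5 and 2, beside 28.3% and 15.8%, and with both drugs 5 and 2, beside 33.8% and 14.3%. With lapatinib SNAI2 could not be called, so that those counts are of 7 genes. CDH1, CDH2, VIM and TWIST1 were higher in BT474m1 and FN1 lower at all 4 treatments, which 18.0% of all genes did in the first direction and 8.34% in the second. CDH2, VIM, SNAI2 and TWIST1 passed the filter through BT474m1 alone and SNAI1 through SKBR-3 alone, so that the filter favoured the direction of their calls. The same holds for 1022 of the 2604 genes that were higher in BT474m1 at all 4 treatments and for 346 of the 1203 that were lower. The FN1 log2 difference was -3.01 (DMSO), -4.34 (lapatinib), -3.70 (JQ1) and -3.17 (both drugs). Line cannot be told apart from any batch in which the libraries of a line were prepared or sequenced.

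Around the 10 genes, 6 wider lists of the same biology with 156 genes were read by their counts and medians. The shares of all genes called, higher then lower, were 10.7% and 9.07% in SKBR-3 and 13.9% and 7.99% in BT474m1 with lapatinib, 3.51% and 11.2% and 4.78% and 11.7% with JQ1, and 10.5% and 20.3% and 14.1% and 15.2% with both drugs. The medians over all genes, SKBR-3 first, were 0.05 and 0.07 with lapatinib, -0.08 and -0.06 with JQ1, and -0.08 and 0.00 with both drugs on the log2 scale. With a pseudocount of 10 the shares were smaller, and 4 of them by more than 1.5 times: in SKBR-3 7.12% were then higher with lapatinib, and 2.16% higher and 6.47% lower with JQ1, and in BT474m1 3.06% were higher with JQ1.

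Among 28 genes of epithelial junctions, 3 were called higher (10.7%, the same as the share of all genes) and 0 lower with lapatinib in SKBR-3, with a median log2 fold change of 0.41 beside 0.05 over all genes. With both drugs 6 were higher (21.4%, beside 10.5% of all genes) and 1 lower (3.57%, beside 20.3%), with a median of 0.44 beside -0.08. In BT474m1 lapatinib gave 2 higher (7.14%, beside 13.9%) and 0 lower, and both drugs gave 0 in each direction, with medians of -0.04 and 0.12. JQ1 gave 0 higher in either line, and 1 lower in SKBR-3 (3.57%, beside 11.2%). The medians with JQ1 were 0.22 beside -0.08 in SKBR-3 and -0.05 beside -0.06 in BT474m1.

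Among 24 epithelial regulators, lapatinib gave 7 calls higher (29.2%, beside 10.7% of all genes) and 0 lower in SKBR-3 (median 0.50 beside 0.05), and 1 higher (4.17%, beside 13.9%) and 0 lower in BT474m1 (median -0.01 beside 0.07). Both drugs gave 6 higher (25.0%, beside 10.5%) and 1 lower (4.17%, beside 20.3%) in SKBR-3 (median 0.61 beside -0.08). In BT474m1 they gave 3 higher (12.5%, beside 14.1%) and 2 lower (8.33%, beside 15.2%), with a median of 0.02 beside 0.00. ELF3, an ETS factor of epithelia, in response to both drugs rose in SKBR-3 from 6415 to 24921 (1.96) and in BT474m1 from 2549 to 7517 (1.56). ELF5, a luminal ETS factor, rose with lapatinib by 1.0 and 1.22, of which the SKBR-3 call was lost with a pseudocount of 10 (0.95), with equal totals (0.95) and with median-of-ratios scaling (0.99). With JQ1 the counts were 0 and 3 in SKBR-3 and 1 and 2 in BT474m1, where the lower calls were 12.5% and 8.33% of the list beside 11.2% and 11.7% of all genes. The medians with JQ1 were 0.29 beside -0.08 in SKBR-3 and 0.12 beside -0.06 in BT474m1. EHF, a further epithelial ETS factor, fell in SKBR-3 from 414 to 134 (log2 -1.62) and in BT474m1 from 2847 to 432 (-2.72).

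The list of mesenchymal matrix and cytoskeleton genes held 38 genes, of which 29 passed the filter. With JQ1, 0 were called higher and 10 lower in SKBR-3 (34.5% lower, beside 11.2% of all genes, median -0.73 beside -0.08) and 0 and 7 in BT474m1 (24.1% lower, beside 11.7%, median -0.45 beside -0.06). With both drugs 3 were higher (10.3%, beside 10.5%) and 17 lower (58.6%, beside 20.3%) in SKBR-3, with a median of -1.14 beside -0.08. In BT474m1 both drugs gave 4 higher (13.8%, beside 14.1%) and 7 lower (24.1%, beside 15.2%), with a median of -0.06 beside 0.00. With lapatinib the counts were 2 and 4 in SKBR-3 (6.90% and 13.8%, beside 10.7% and 9.07%, median -0.02) and 9 and 6 in BT474m1 (31.0% and 20.7%, beside 13.9% and 7.99%, median 0.15). The summed level of the 38 genes in SKBR-3 was 40047 (DMSO), 62538 (lapatinib), 38909 (JQ1) and 42940 (both drugs). So the sum, which the abundant genes dominate, did not fall with both drugs there, although 17 genes were called lower. In BT474m1 it was 12901, 13919, 11533 and 9936 in the same order. TPM2, 1 of the lower genes in SKBR-3 with JQ1 and with both drugs, and AXL, 1 of the higher genes in BT474m1 with lapatinib, passed the filter only through the library where they are higher, and 9, 16 and 8 calls remain without them. COL1A1, a chain of type I collagen, in response to both drugs fell in SKBR-3 from 124 to 24.1 (log2 -2.32) and in BT474m1 from 1253 to 337 (-1.89). S100A4, a calcium-binding protein linked to motility, fell from 2548 to 559 (-2.19) and from 277 to 65.3 (-2.07). COL5A1, a chain of type V collagen, had log2 fold changes of -2.57 and -1.47. COL1A1 is also a fibroblast marker. The summed level of the 10 fibroblast markers was 30.3 to 133 in the SKBR-3 libraries and 342 to 1265 in those of BT474m1, most of it COL1A1, with LUM at 0 in all 8 libraries. THY1, a surface glycoprotein and the other fibroblast marker that passed the filter, had 3.58 (DMSO), 0.766 (lapatinib), 50.9 (JQ1) and 6.19 (both drugs) in SKBR-3 and at most 0.483 in BT474m1. With JQ1 in SKBR-3 THY1 rose by 3.5 on the log2 scale, while COL1A1 went from 124 to 81.2. THY1 passed the filter through that JQ1 library alone, as did the basal keratin KRT5. The 8 other fibroblast markers lay at or below 8.02. Of the 6 basal and myoepithelial markers that passed the filter, among them ACTA2, which both lists hold, 4 were lower in SKBR-3 with JQ1. That was 66.7%, beside 11.2% of all genes, with a median of -1.19 beside -0.08. KRT5 was the 1 higher (16.7%, beside 3.51%). With both drugs 4 were lower (66.7%, beside 20.3%, median -1.49 beside -0.08). In BT474m1 3 of the 6 could be called, and 1 (TP63) was lower with each treatment. This was 16.7%, beside 7.99% (lapatinib), 11.7% (JQ1) and 15.2% (both drugs). TP63 passed the filter through the BT474m1 DMSO library alone. The summed level of the 8 in SKBR-3 was 129 (DMSO), 110 (lapatinib), 61.9 (JQ1) and 40.9 (both drugs). The part of these markers in the lower matrix and cytoskeleton genes was not tested.

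**Figure D4:**
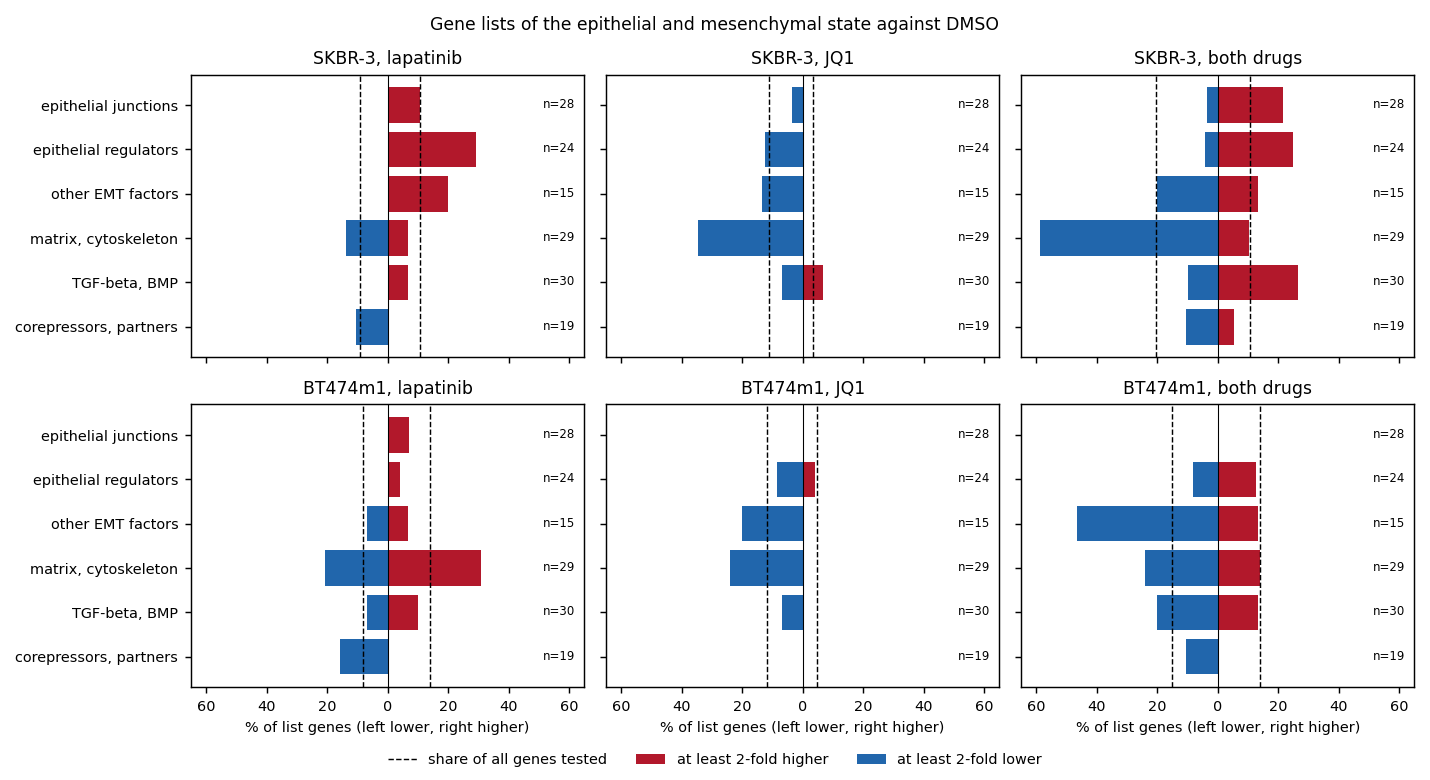
Share of each list called at least 2-fold higher (right) or lower (left) against DMSO, in % of its genes that passed the filter (n), for SKBR-3 (top) and BT474m1 (bottom). Broken lines mark the share of all genes called in the same direction. Matrix and cytoskeleton genes in SKBR-3 with both drugs (17 of 29 lower, 1 of which passed the filter through the DMSO library alone) and other EMT factors in BT474m1 with both drugs (7 of 15 lower, 2 of which passed the filter through the DMSO library alone) reach farthest to the left.

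Other EMT transcription factors numbered 16, and 15 passed the filter. In SKBR-3 11 of the 15 had more than 3 reads with DMSO or both drugs and could be called. Both drugs gave 2 calls higher (13.3%, beside 14.1% of all genes) and 7 lower (46.7%, beside 15.2%) in BT474m1 (median -0.73 beside 0.00). Of those 7, TWIST2 and PRRX1 passed the filter through the DMSO library alone, which favoured a fall, and 5 remain without them. In SKBR-3 they gave 2 higher (13.3%, beside 10.5%) and 3 lower (20%, beside 20.3%), with a median of 0.00 beside -0.08. Of the 11 that could be called there, these are 2 and 3, beside 11.3% and 21.9% of all genes that could be called. TEAD1, the DNA-binding partner of YAP, fell with both drugs by 1.13 on the log2 scale in each line (SKBR-3 from 3599 to 1645, BT474m1 from 738 to 338; -0.99 in SKBR-3, and not called, when scaled by the median of ratios), and TCF3, an E-protein partner of TWIST1, fell by 1.51 in SKBR-3 and 1.05 in BT474m1. KLF8, a Krüppel-like repressor of CDH1, rose with lapatinib by 1.02 and 1.34, and the SKBR-3 value was just under the call when scaled by the median of ratios and 0.96 when scaled to equal totals. Lapatinib gave 3 higher (20%, beside 10.7%) and 0 lower in SKBR-3, and 1 in each direction in BT474m1 (6.67%, beside 13.9% and 7.99%), the lower one being PRRX1. JQ1 gave 0 higher in either line, 2 lower in SKBR-3 (13.3%, beside 11.2%) and 3 lower in BT474m1 (20%, beside 11.7%), of which TWIST2 was 1.

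Of 31 TGF-beta and BMP signalling genes 30 passed the filter. With both drugs 8 were called higher (26.7%, beside 10.5% of all genes) and 3 lower (10.0%, beside 20.3%) in SKBR-3 (median 0.47 beside -0.08). In BT474m1 there were 4 higher (13.3%, beside 14.1%) and 6 lower (20%, beside 15.2%), with a median of 0.09 beside 0.00. Lapatinib gave 2 higher and 0 lower in SKBR-3 and 3 and 2 in BT474m1, which are 6.67% and 10.0% higher beside 10.7% and 13.9%. JQ1 gave 2 and 2 in SKBR-3 and 0 and 2 in BT474m1, with 6.67% lower in each line beside 11.2% and 11.7%. TGFB3, a TGF-beta ligand, fell with JQ1 in SKBR-3 from 3069 to 903 (log2 -1.76) and in BT474m1 from 2394 to 376 (-2.67), and with both drugs to 446 (-2.78) and 89.2 (-4.73). BAMBI, a decoy receptor of the pathway, rose with both drugs by 1.06 and 1.23, the former 0.98 and not called when scaled to equal totals. Among 19 corepressors and chromatin partners of EMT factors, lapatinib gave 0 higher and 2 lower in SKBR-3 (10.5% lower, beside 9.07%) and 0 and 3 in BT474m1 (15.8% lower, beside 7.99%). JQ1 gave 0 in each direction in either line, and both drugs gave 1 and 2 in SKBR-3 and 0 and 2 in BT474m1, with 10.5% of the list lower in each beside 20.3% and 15.2% of all genes. EZH2, the histone H3 methyltransferase of Polycomb complex PRC2, fell with lapatinib by 2.42 and 1.45, and DNMT1, the maintenance DNA methyltransferase, by 1.77 and 1.10.

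Between the lines, the wider lists did not all point one way. Of all genes, 18.0% were higher in BT474m1 at all 4 treatments and 8.34% were lower. Of the junction genes 2 were higher at all 4 treatments (7.14%) and 5 lower (17.9%), and of the epithelial regulators 3 (12.5%) and 5 (20.8%). ESRP1, an epithelial splicing regulator, was higher in BT474m1 by 2.16 to 3.09 on the log2 scale, while JUP (plakoglobin, 18994 to 38395 in SKBR-3 and 6658 to 10736 in BT474m1) and the plakophilin PKP3 were lower. Of 15 other EMT factors 6 were higher (40%) and 2 lower (13.3%), among them TCF3, at 2113 to 4380 in BT474m1 and 495 to 1408 in SKBR-3, and TEAD1, at 338 to 774 and 1645 to 3599. Of 29 matrix and cytoskeleton genes 7 were higher (24.1%) and 12 lower (41.4%). TNC, the matrix protein tenascin-C, was at 35.6 to 843 in BT474m1 and at or below 1.53 in SKBR-3, whereas S100A4 was at 559 to 3659 in SKBR-3 and at 65.3 to 277 in BT474m1. Of the higher genes, 1 junction gene (CDH3), 3 EMT factors (TWIST2, GSC and HMGA2) and 1 corepressor or partner (PRKD1) passed the filter through BT474m1 alone. So did 4 matrix and cytoskeleton genes (COL6A2, TNC, LOX and MMP14). Of the lower genes, 1 junction gene (CLDN1) and 4 matrix and cytoskeleton genes passed the filter through SKBR-3 alone. Of 30 TGF-beta and BMP genes 2 were higher (6.67%) and 6 lower (20%), among them SMAD4, the common SMAD (2.35 to 3.08 higher), and LTBP1, a latent TGF-beta binding protein (log2 difference -5.06 to -2.55), and of 19 corepressors and partners 1 was higher (PRKD1, 5.26%) and 2 were lower (10.5%).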

How the data were processed

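Poly(A) RNA was measured by sequencing in 8 libraries, grouped by the labels' cell line and treatment, with 1 library per group. As deposited, the signal of a gene is its read count, which the authors estimated with RSEM and scaled to an upper quartile of 1000 among genes above 0. The submitters' processing notes name hg19, RSEM, Picard 1.88 and SAMtools 1.2, whereas the methods of the study name another assembly, aligner and quantifier, so positions given here come from RefSeq and not from the tables. The treatment time was taken from the labels. The labels name both a KAPA stranded kit and an Illumina TruSeq kit. The methods of the study name the KAPA stranded kit, with TruSeq adaptors as the index. Whether strand was used in the counts is not known.

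The value of 1 read was recovered as the common step between values, and 83.8% to 85.2% of values above 0 were whole reads within 0.02 reads. The rest are the fractional estimates RSEM gives. Analyses used scipy 1.17.1, pandas 2.3.3 and numpy 2.4.6 under Python 3.11.15, and matplotlib 3.10.9 for figures. The 14429 genes that reached 10 units in any library were kept and 6102 removed. A gene was called at a change of 2-fold or more in log2(value + 1), with more than 3 reads in at least 1 of the 2 libraries. No p-value was computed. The 95% intervals are exact Clopper-Pearson intervals of the ratio of the recovered reads, without the pseudocount. They and the floor of 3 reads cover counting error only, since reads amplified by PCR and lacking molecular identifiers do not each stand for a separate molecule. The contrasts were each treatment against DMSO, both drugs against each single drug, and BT474m1 against SKBR-3 at each treatment. A fold change against a library without reads was computed against the floor as a lower bound.

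The 10 genes and the gene lists were chosen with earlier results of these data known. Besides the 10 genes, up to 3 genes a list, treatment and direction were named, the most changed among those called alike in both lines that reached 100 units in each, and up to 4 a list and direction between the lines. For EPCAM and FN1, the 3 genes of highest Pearson r over the 8 libraries, centred within line, were named. Genes around CDH1, and the markers of other cell types, were chosen after their values were seen or as markers. Values of some genes that the naming rule takes are not reported here. Transcript lengths and exon overlaps come from GENCODE v44. Alternatives were no filter, a filter at 100, a pseudocount of 10, scaling to equal totals or by the median of ratios, and intervals that exclude no change, with calling by fold change alone chosen after seeing the data.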

Additional observations from a re-analysis of the deposited data

Results flagged for a closer look

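FN1 and EPCAM moved in opposite directions in the lines under the same comparison, with 1 library per group, and the difference was not tested. With lapatinib against DMSO, the FN1 log2 fold change was 0.74 in SKBR-3 and -0.59 in BT474m1. The EPCAM log2 fold change with both drugs was -0.45 in SKBR-3 and 0.11 in BT474m1 against DMSO, -0.29 and 0.10 against lapatinib, and -0.30 and 0.22 against JQ1. None of these 8 values reached 2-fold, and the 6 of EPCAM kept their signs under scaling by the median of ratios and to equal totals.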

How the results depend on the processing

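No paired analysis was possible because each group held 1 library and the labels carry no replicate numbers, and a fit that takes the 2 lines as the replicates of a treatment was not run. With a pseudocount of 10, 1 of the 10 genes was called in place of 2 in BT474m1 with lapatinib and in SKBR-3 with both drugs against DMSO and against JQ1, 1 in place of 3 in SKBR-3 with both drugs against lapatinib, and 0 in place of 2 departed 2-fold from the sum of single drugs in SKBR-3. The share of all genes called higher with both drugs against lapatinib was then 1.66% in place of 2.92% for SKBR-3 and 3.20% in place of 5.08% for BT474m1, and against JQ1 5.92% in place of 9.22% for SKBR-3. The wider lists gave 19 calls in place of 31 in SKBR-3 with both drugs against lapatinib and 12 in place of 23 in BT474m1 with both drugs against JQ1. Scaling by the median of ratios left 0 calls in place of 1 in SKBR-3 with JQ1, where FN1 was at the edge. It moved the median of all genes between the lines by -0.15 to -0.31 and that of SKBR-3 with both drugs against lapatinib by 0.11, scaling to equal totals moved that of SKBR-3 with JQ1 by -0.14, and the EPCAM value of BT474m1 with lapatinib changed from 0.01 to -0.05 under the former. A filter at 100, which removes SNAI1 and SNAI2, left 0 calls in place of 1 in SKBR-3 with lapatinib, 1 in place of 2 in BT474m1 with lapatinib, in SKBR-3 with both drugs against DMSO and against JQ1, and in BT474m1 with both drugs against lapatinib, and 1 in place of 2 departures in SKBR-3. Calling by fold change alone, added after seeing the data, gave 5 in place of 3 in SKBR-3 with both drugs against lapatinib. No value reversed a called direction. Depth limits CDH1 to 22 reads and SNAI1 to 73 reads or fewer in SKBR-3, and SNAI2 to 46 and ZEB1 to 12 in BT474m1, and the spread between cultures was not measured.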
